A study of Homo sapiens with 12 samples.

Results

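The 35 genes described here drive entry into mitosis and its course: cyclins A2, B1 and B2 with CDK1 and the CDC25 phosphatases, the mitotic kinases, the partners of the anaphase-promoting complex, kinetochore proteins, kinesin motors, spindle and cytokinesis factors, chromosome proteins and the transcription factor FOXM1. They were chosen by name, and all 35 names were found among the 56104 genes counted in both assays. The cells were HCT116, a human colorectal carcinoma line, kept at low passage. In the KO groups the gene PPM1G, which encodes a nuclear protein phosphatase of the metal-dependent family, had been knocked out, and the Ctrl groups were control cells of the same line. Whether the knockout line is 1 clone is not stated in the labels used here. Each genotype was measured in 3 libraries by 4sU-seq, which reads RNA made during a pulse with 4-thiouridine (500 µM for 10 min), and in 3 libraries by RNA-seq, which reads the RNA present at steady state. The 12 libraries therefore fall into 4 groups: KO and Ctrl in 4sU-seq, and KO and Ctrl in RNA-seq. ERCC spike-in RNA was added to all of them. The 4sU-seq cultures were labelled biological replicates. The RNA-seq cultures were not described, so p-values there measure the spread between these libraries, which may be technical.

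Transcripts of these genes are low in G1, accumulate through S phase and peak in G2 and mitosis. In G1 the DREAM complex, built on the MuvB core, holds their promoters silent. Later the same core joins B-MYB and then FOXM1, and the genes are switched on. MuvB contacts DNA at the cell cycle genes homology region (CHR), and the CCAAT boxes found a short way upstream bind the factor NF-Y. Because the transcripts come mostly from cells in late cell cycle, their level in a bulk culture depends both on the share of cells in G2 and mitosis and on the amount of RNA in each such cell. In these libraries fewer cells in that phase and less RNA per cell cannot be told apart.

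The promoters of these genes are shown first, because they carry the shared elements. RefSeq promoter windows on GRCh38.p14, reaching from 250 bases before to 50 bases after a transcription start, were matched for 29 of the 35 genes (38 windows, since some genes have several starts). FOXM1, BIRC5, TTK, TPX2, AURKA and UBE2C had none. Each window was searched for the CCAAT box (CCAAT or its complement ATTGG) and for the CHR element (TTTGAA or its complement TTCAAA, or TTCGAA, which is its own complement). Both strands were read, and matches were allowed to overlap, as the CCAAT and ATTGG of HMMR do. A CCAAT box was present in at least 1 window of 25 of the 29 genes (86.2%), against 42.1% of the 15843 protein-coding genes with a window. A CHR element was present in 22 (75.9%), against 17.5%. Both were present in 20 (69.0%), against 7.28%. Counted by window rather than by gene, both were present in 57.9% of 38 windows, against 5.48% of 22199. The plus-strand windows of 6 genes follow, 5′ to 3′, with matches to either element in capitals. PLK1, KIF23, KIF4A and CCNB2 fell in KO RNA-seq libraries, while CDK1 and HMMR were not called in either assay. These 6 were chosen after their values were seen, to set both kinds side by side.
PLK1 (chr16:23678639-23678938, plus strand): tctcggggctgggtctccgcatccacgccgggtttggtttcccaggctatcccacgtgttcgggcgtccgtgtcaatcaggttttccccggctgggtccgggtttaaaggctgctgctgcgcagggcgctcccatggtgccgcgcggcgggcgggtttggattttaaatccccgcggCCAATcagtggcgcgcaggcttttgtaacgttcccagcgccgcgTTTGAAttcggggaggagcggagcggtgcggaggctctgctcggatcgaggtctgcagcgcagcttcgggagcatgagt
KIF23 (chr15:69414099-69414398, plus strand): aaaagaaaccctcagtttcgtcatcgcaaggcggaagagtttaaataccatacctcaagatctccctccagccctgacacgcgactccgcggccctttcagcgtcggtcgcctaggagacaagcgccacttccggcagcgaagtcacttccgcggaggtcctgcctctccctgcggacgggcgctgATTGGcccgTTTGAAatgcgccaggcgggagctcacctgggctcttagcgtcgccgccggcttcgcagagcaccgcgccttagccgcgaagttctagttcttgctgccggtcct
KIF4A (chrX:70289854-70290153, plus strand): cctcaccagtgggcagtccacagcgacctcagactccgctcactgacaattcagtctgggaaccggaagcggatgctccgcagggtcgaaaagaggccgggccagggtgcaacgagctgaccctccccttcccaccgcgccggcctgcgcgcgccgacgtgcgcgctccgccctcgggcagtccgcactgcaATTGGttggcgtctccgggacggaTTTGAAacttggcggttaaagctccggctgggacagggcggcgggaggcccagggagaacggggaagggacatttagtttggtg
CCNB2 (chr15:59104896-59105195, plus strand): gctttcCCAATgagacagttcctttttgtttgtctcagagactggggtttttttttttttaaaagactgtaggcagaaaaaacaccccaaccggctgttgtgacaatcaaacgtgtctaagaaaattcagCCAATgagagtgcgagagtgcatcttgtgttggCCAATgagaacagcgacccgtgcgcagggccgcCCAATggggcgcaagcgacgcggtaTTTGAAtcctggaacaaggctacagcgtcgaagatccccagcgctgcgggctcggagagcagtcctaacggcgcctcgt
CDK1 (chr10:60778228-60778527, plus strand): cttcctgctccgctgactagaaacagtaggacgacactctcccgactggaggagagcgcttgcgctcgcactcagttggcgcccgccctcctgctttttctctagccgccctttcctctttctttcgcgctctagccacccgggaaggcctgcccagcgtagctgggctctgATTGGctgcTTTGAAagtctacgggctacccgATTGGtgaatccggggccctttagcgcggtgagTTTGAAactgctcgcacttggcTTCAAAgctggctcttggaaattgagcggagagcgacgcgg
HMMR (chr5:163460382-163460681, plus strand): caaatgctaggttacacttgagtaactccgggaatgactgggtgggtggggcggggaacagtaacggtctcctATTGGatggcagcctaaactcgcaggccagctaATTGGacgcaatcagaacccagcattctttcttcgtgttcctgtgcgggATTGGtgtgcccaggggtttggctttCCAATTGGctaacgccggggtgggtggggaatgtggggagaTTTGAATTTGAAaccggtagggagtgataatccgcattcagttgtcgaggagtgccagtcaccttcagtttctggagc

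Positions are given from the start site, with the first transcribed base as 1. PLK1 has its CCAAT box at −73 and its CHR element at −29. KIF4A has them at −58 and −34, and KIF23 at −64 and −55. CCNB2 holds 4 CCAAT boxes, at −244, −120, −87 and −54, ahead of a CHR element at −29. The window of CDK1 holds CCAAT boxes at −78 and −46 and CHR elements at −69, −13 and 10. HMMR holds 5 CCAAT boxes and 2 CHR elements that follow each other directly, at −28 and −22. The 6 genes without a window could not be compared. Among them were UBE2C, with the lowest RNA-seq change of the 35 genes, and TTK, with the highest. Among the 29 genes with a window, matches to the elements did not separate genes that fell from those that did not. The 20 genes with both had a median log2 change of −0.35 in 4sU-seq and −0.39 in RNA-seq, and 6 and 15 of them fell. The 9 genes without a match to at least 1 of the elements had medians of −0.56 and −0.36, and 2 and 8 of them fell. Over all genes tested 6.98% and 26.8% were called lower. Other spellings of the CHR element were not searched, so a gene without a match may still hold one. The matches are of letters and were not tested as binding sites.

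**Figure D1:**
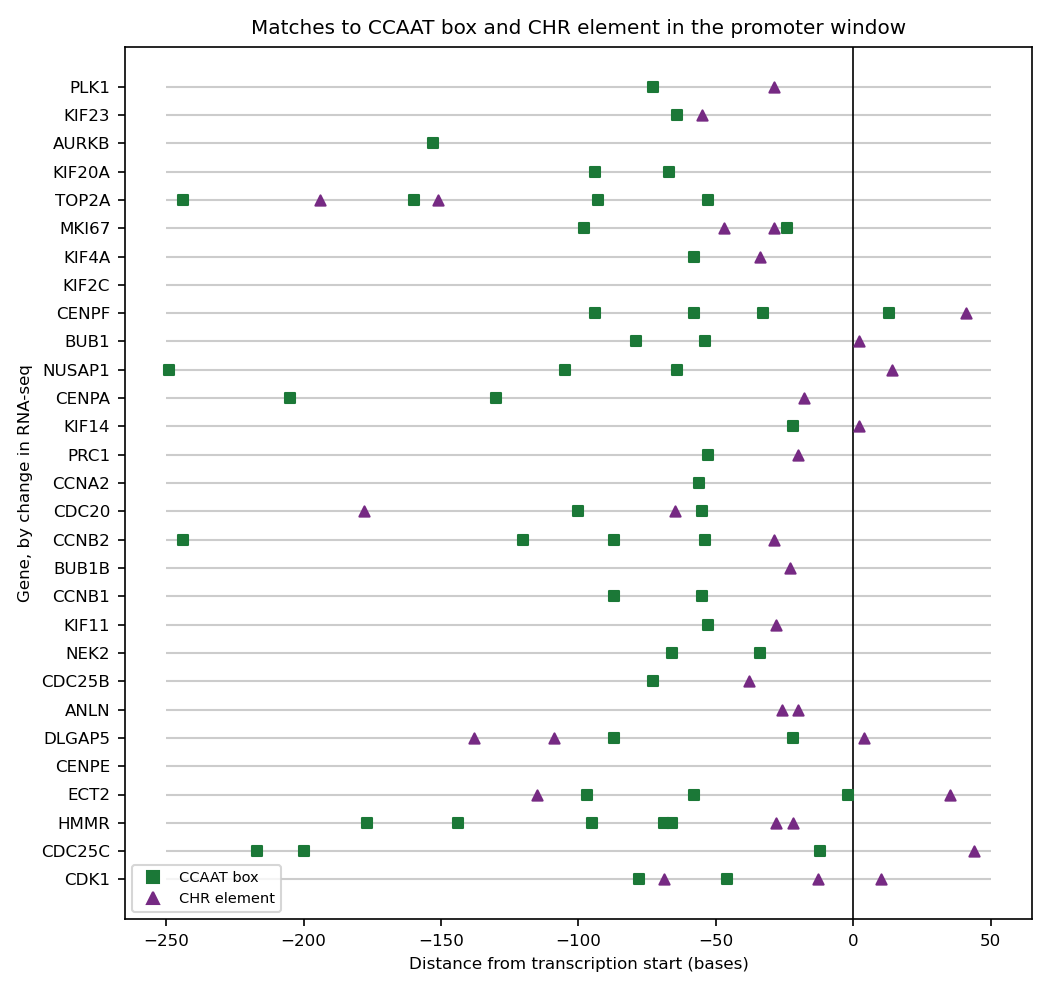
Matches to the CCAAT box (squares) and the CHR element (triangles) in 1 promoter window of each of 29 genes, by distance from the transcription start in bases. For genes with several starts the window with most matches is drawn, and genes run from the lowest RNA-seq change at the top to the highest at the bottom. CDK1 and HMMR, at the bottom, hold both elements, as PLK1 and KIF23 at the top do.

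The 4sU-seq libraries held 79403238 to 101884166 gene counts and the RNA-seq libraries 30962756 to 42479828, so a floor of 3 counts lay at 0.0294 to 0.0378 CPM and 0.0706 to 0.0969 CPM before TMM scaling. CPM are gene counts scaled to a common library total and, elsewhere, normalised by TMM. Floors cover counting error only, and the lowest mean of any of the 35 genes in a Ctrl group was 26.8 CPM. PPM1G itself stood at 98.9, 144 and 104 CPM in KO 4sU-seq libraries, against 242, 271 and 235 CPM in Ctrl libraries, and at 97.8, 94.9 and 97.9 CPM in KO RNA-seq libraries, against 326, 293 and 331 CPM in Ctrl. Its log2 change was −1.11 ± 0.17 and −1.71 ± 0.06 (adjusted p = 0.00717 and 1.77e-10). In 4sU-seq, KO replicate 2 stood apart: its counts differed from those of KO replicates 1 and 3 with a chi-square per gene of 380 and 502, against 39.2 between KO replicates 1 and 3 and 77.7 to 117 among Ctrl replicates. In RNA-seq, KO replicates 1 and 2 were closer to each other (2.02) than other pairs of a group (14.4 to 25.9), yet further apart than counting noise gives, and were kept as separate libraries. Epithelial markers summed to 2688 to 2799 CPM in KO and 2852 to 3253 CPM in Ctrl RNA-seq libraries. Fibroblast markers summed to 9.75 to 11.1 CPM in KO and 4.28 to 6.27 CPM in Ctrl, with 3 of 5 at 0, and immune and endothelial markers stayed under 1 CPM in RNA-seq. In 4sU-seq the endothelial markers summed to 12.7 to 12.9 CPM in KO and 5.97 to 6.67 CPM in Ctrl, mostly from PECAM1. The part of these shifts in the results was not tested.

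At steady state transcripts of most of the mitotic genes fell in KO cells, while in newly made RNA a smaller count passed the test. Together the 35 genes made up 0.395%, 0.445% and 0.415% of 4sU-seq gene counts in KO libraries, against 0.521%, 0.537% and 0.531% in Ctrl libraries, and 0.868%, 0.855% and 0.870% of RNA-seq counts in KO, against 0.996%, 0.978% and 0.987% in Ctrl. All 35 genes were tested in both assays, and a change was called at an adjusted p below 0.05 (edgeR quasi-likelihood F test, Benjamini-Hochberg over all genes tested). Each log2 change is that of KO over Ctrl, given ± its standard error (n = 3 libraries in each group). In RNA-seq 28 genes fell, 0 rose and 7 were not called, with 28 at an unadjusted p below 0.05 for a fall and 1 for a rise. Over all 20415 genes tested, 26.8% were called lower and 21.5% higher, and of protein-coding genes 35.4% were lower. The median log2 change of the 35 genes was −0.38, against 0.00 for all genes. The KO and Ctrl libraries did not overlap in 28 genes, all lower in KO, against 29.9% of all genes. In 1 fit of all 12 libraries 20 of the 35 were called lower, against 12% of all genes, and CCNB1, CDC25B, BUB1B, CDC20, BIRC5, KIF11, KIF14 and ANLN were not called there. The mitochondrially encoded genes moved with the mitotic genes in RNA-seq: 12 of 13 were called lower, with a median of −0.43, and they summed to 12401 to 15110 CPM in KO and 18244 to 19386 CPM in Ctrl. In 4sU-seq 0 of the 13 were called, with a median of 0.03 and sums of 6870.2 to 9310 CPM in KO and 6900.1 to 8344 CPM in Ctrl. The part of this shift in the result was not tested.

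In 4sU-seq 10 genes fell, 0 rose and 25 were not called, while 6.98% of all 21236 genes tested were called lower (7.81% of protein-coding genes) and 12.6% higher. At an unadjusted p below 0.05, 21 were lower and 0 higher. The median change was −0.49, against 0.05 for all genes, and 21 genes were lower in KO with no overlap between the groups, against 17.8% of all genes. The count of calls rested on single libraries. It was 25 without KO replicate 2, where 28.4% of all genes were called lower and 25.4% higher, and 26 without either replicate numbered 2, where 24.8% were lower. It was 1 when Ctrl replicate 1 or Ctrl replicate 2 was left out, 4 when Ctrl replicate 3 was, and 2 when KO replicate 1 was, and then 1.23% to 2.36% of all genes were called lower. DESeq2's Wald test called 19 lower, and 11.4% of all genes. With the replicate number as a block 21 were called lower, and 13% of all genes. Scaling by the ERCC counts left 0 calls and moved the median of all genes to 0.27. The median of the 35 genes minus that of all genes was −0.54 in the TMM fit and between −0.61 and −0.48 over the 15 alternatives tried. In RNA-seq this difference was −0.39, with a range of −0.49 to −0.31 over 15 alternatives. A change of scaling shifts all genes nearly alike, so it hardly moves this difference in either assay and does not test it. With library size as the only RNA-seq scaling the 35 genes had a median of −0.20 and all genes 0.19.

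**Figure D2:**
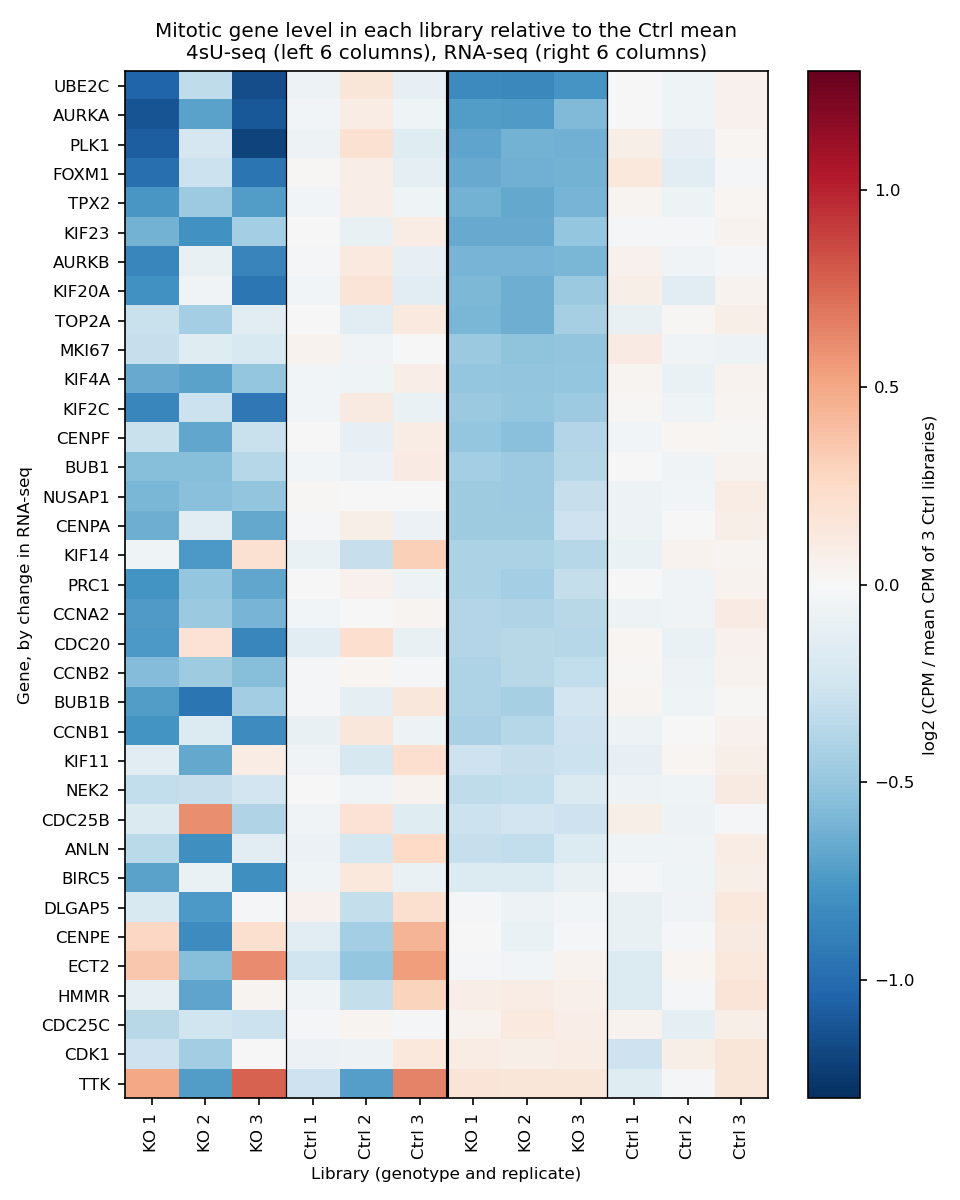
Level of each of the 35 genes in the 12 libraries, as log2 of its CPM over the mean of the 3 Ctrl libraries of the same assay, with KO left of Ctrl in each assay and genes ordered by their RNA-seq change. Blue is below the Ctrl mean: RNA-seq KO columns are blue down to BIRC5, and in 4sU-seq the column of KO replicate 2 differs in pattern from those of KO replicates 1 and 3.

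**Figure D3:**
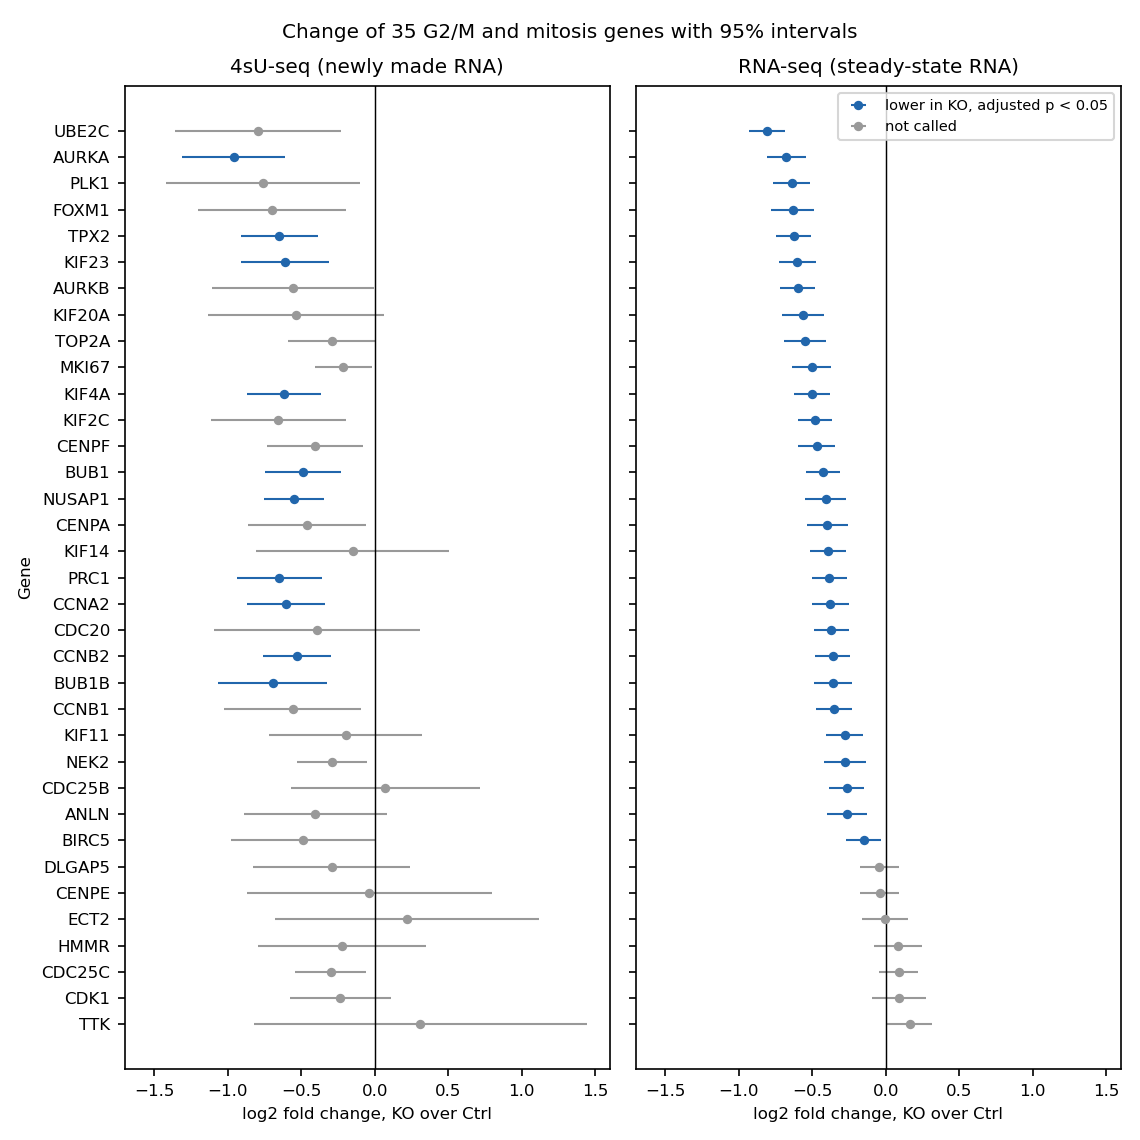
Log2 change of each gene, KO over Ctrl, with its 95% interval, in 4sU-seq (left) and RNA-seq (right). Blue points were called lower (10 in 4sU-seq, 28 in RNA-seq) and grey points were not called. Intervals are wider in 4sU-seq, where the median standard error was 0.19, against 0.06 in RNA-seq.

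Of the cyclins and their kinase, the 3 cyclins fell in RNA-seq and CDK1 was not called. In RNA-seq CCNB1, a cyclin that drives entry into mitosis with CDK1, stood at 271, 279 and 299 CPM in KO libraries, against 346, 362 and 377 CPM in Ctrl (−0.35 ± 0.06, adjusted p = 0.000207). Every KO library was below every Ctrl library. CCNA2, which acts in S phase and G2, changed by −0.38 ± 0.06 and CCNB2 by −0.36 ± 0.06 (adjusted p = 0.000141 and 0.000127). In 4sU-seq CCNA2 had 55.3, 66.0 and 60.7 CPM in KO and 90.2, 91.5 and 94.7 CPM in Ctrl libraries (−0.60 ± 0.11, adjusted p = 0.0134), and CCNB2 had 66.3, 71.2 and 66.7 CPM in KO and 97.2, 100.0 and 96.9 CPM in Ctrl (−0.53 ± 0.10, adjusted p = 0.0132). Both were separated without overlap. CCNB1 in 4sU-seq had 130.0, 198 and 127 CPM in KO, against 209, 247 and 213 CPM in Ctrl. KO replicate 2 was the high one of its group, the groups did not overlap, and the change of −0.56 ± 0.20 was not called (adjusted p = 0.0959).

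CDK1, the catalytic partner of these cyclins, had 232, 230.0 and 232 CPM in KO RNA-seq libraries, against 181, 229 and 243 CPM in Ctrl. The 3 KO values were nearly alike and lay within the Ctrl range, and the interval of the change was −0.10 to 0.28. In 4sU-seq its change was −0.23 ± 0.14 (interval −0.58 to 0.11). Of the phosphatases that activate CDK1, CDC25B fell in RNA-seq, to 199, 202 and 199.8 CPM in KO, against 254, 229 and 239 CPM in Ctrl (−0.27 ± 0.06, adjusted p = 0.0013). Under ERCC scaling, library size alone and a fit of all 12 libraries this gene was no longer called. In 4sU-seq CDC25B had 103, 178 and 89.2 CPM in KO and 113, 133 and 105 CPM in Ctrl. KO replicate 2 was the highest of the 6 libraries and the other 2 KO libraries the lowest, and the change was 0.07 ± 0.27. Without KO replicate 2 it was −0.36 ± 0.13 and called (adjusted p = 0.0472). CDC25C was not called in either assay and was lower in KO without overlap in 4sU-seq only. In RNA-seq it had 36.1, 38.0 and 37.1 CPM in KO and 35.8, 32.0 and 36.7 CPM in Ctrl (interval of the change −0.04 to 0.22), and in 4sU-seq 43.0, 46.3 and 45.3 CPM in KO and 54.4, 56.6 and 54.7 CPM in Ctrl (−0.30 ± 0.10, adjusted p = 0.0848).

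Of the 7 mitotic kinases 6 fell in RNA-seq and 3 in 4sU-seq, against 26.8% and 6.98% of all genes. AURKA, which matures centrosomes and builds the spindle, had the lowest change of the 35 genes in 4sU-seq. It stood at 80.5, 108 and 81.6 CPM in KO and 170.4, 187 and 168 CPM in Ctrl (−0.96 ± 0.15, adjusted p = 0.00717), all KO libraries well below all Ctrl libraries. It lost its call under 1 of 15 alternatives, ERCC scaling. In RNA-seq AURKA had 123, 122 and 136 CPM in KO and 203, 195 and 212 CPM in Ctrl (−0.68 ± 0.06, adjusted p = 1.27e-06). PLK1, the kinase that drives mitotic entry and exit from the checkpoint, had 214, 224 and 224 CPM in KO RNA-seq libraries, against 363, 319 and 351 CPM in Ctrl (−0.64 ± 0.06, adjusted p = 1.5e-06). The groups were far apart. In 4sU-seq PLK1 had 94.9, 171 and 86.6 CPM in KO and 191, 229 and 179 CPM in Ctrl. KO replicates 1 and 3 were far below the Ctrl libraries and KO replicate 2 just below the lowest of them. The change of −0.76 ± 0.28 was not called (adjusted p = 0.105), and without KO replicate 2 it was −1.21 ± 0.13. AURKB, the kinase of the chromosomal passenger complex, had 66.6, 66.5 and 67.1 CPM in KO RNA-seq libraries and 105, 98.0 and 100.1 CPM in Ctrl (−0.60 ± 0.06, adjusted p = 1.56e-06).

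The checkpoint kinase BUB1 had 99.7, 99.6 and 113 CPM in KO and 143, 139 and 157 CPM in Ctrl 4sU-seq libraries (−0.49 ± 0.11, adjusted p = 0.0244), and its RNA-seq change was −0.43 ± 0.05 (adjusted p = 2.27e-05). BUB1B, whose product BUBR1 holds back the anaphase-promoting complex, had 126, 108 and 152 CPM in KO and 204, 189.7 and 229.8 CPM in Ctrl (−0.70 ± 0.15, adjusted p = 0.025). Its RNA-seq change was −0.36 ± 0.06. For both the KO and Ctrl libraries were separated in each assay. NEK2, a centrosome kinase, fell in RNA-seq (−0.28 ± 0.07, adjusted p = 0.00356) and lost that call under ERCC scaling and library size alone.

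TTK, also called MPS1, the kinase that starts the spindle checkpoint, had the highest change of the 35 genes in both assays and was called in neither. In RNA-seq it stood at 217, 216 and 215 CPM in KO and 173, 190.0 and 216 CPM in Ctrl, where KO libraries were close together and Ctrl replicate 3 reached the KO level. Its change of 0.16 ± 0.07 missed the threshold (adjusted p = 0.0769). It was called higher under 8 of 15 alternatives, among them DESeq2 size factors (0.18, adjusted p = 0.0396) and leaving out Ctrl replicate 3 (0.28, adjusted p = 0.000891). In 4sU-seq TTK had 67.8, 29.0 and 81.4 CPM in KO and 39.8, 29.2 and 74.7 CPM in Ctrl. Replicate 2 was the low one in both groups, the groups overlapped, and the change was 0.31 ± 0.47 (interval −0.82 to 1.44).

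**Figure D4:**
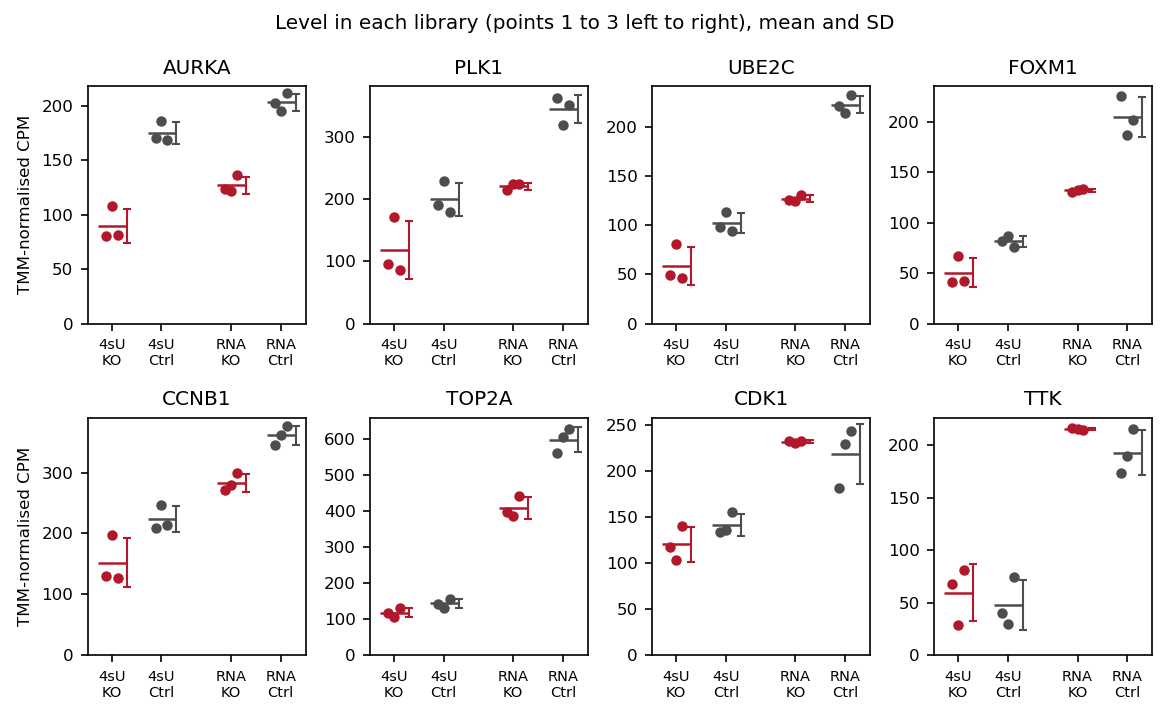
CPM of 8 genes in each library of 4sU-seq and RNA-seq, KO (red) left of Ctrl (grey), with points for replicates 1 to 3 from left to right, a line at the mean and a bar of 1 SD. AURKA, PLK1, UBE2C, FOXM1, CCNB1 and TOP2A lie lower in KO in RNA-seq without overlap, while CDK1 and TTK overlap with Ctrl.

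Both partners of the anaphase-promoting complex fell in RNA-seq, as did 26.8% of all genes. UBE2C, the E2 enzyme that starts ubiquitin chains on its substrates, had the lowest RNA-seq change of the 35 genes. It stood at 125, 125 and 131 CPM in KO and 222, 215 and 232 CPM in Ctrl (−0.81 ± 0.06, adjusted p = 9.73e-08), and KO libraries averaged 57.1% of the Ctrl level. In 4sU-seq UBE2C had 49.6, 81.2 and 46.0 CPM in KO and 97.9, 114 and 94.6 CPM in Ctrl. The groups did not overlap, but KO replicate 2 was far above the other KO libraries and the change of −0.79 ± 0.24 was not called (adjusted p = 0.0611). CDC20, which activates the complex at anaphase, changed by −0.37 ± 0.06 in RNA-seq (adjusted p = 9.57e-05). In 4sU-seq it had 123, 236 and 115 CPM in KO and 187, 242 and 193 CPM in Ctrl, and KO replicate 2 lay among the Ctrl libraries (−0.39 ± 0.29, interval −1.09 to 0.31).

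Among kinetochore and passenger proteins no 4sU-seq change was called, while 6.98% of all genes were called lower. CENPF (−0.41 ± 0.14, adjusted p = 0.0837) and CENPA (−0.46 ± 0.17, adjusted p = 0.104) were lower in KO there without overlap. For BIRC5 (−0.49 ± 0.20, adjusted p = 0.148) and CENPE (−0.04 ± 0.35) the 4sU-seq groups overlapped. CENPF, a kinetochore protein that accumulates in G2, fell in RNA-seq to 551, 536 and 600.2 CPM in KO, against 760.2, 794 and 786 CPM in Ctrl (−0.47 ± 0.06, adjusted p = 2.43e-05). CENPA, the centromeric histone variant, changed by −0.40 ± 0.07 (adjusted p = 0.000199). CENPE, a kinetochore motor, had 277, 261 and 272 CPM in KO and 259, 273 and 301 CPM in Ctrl, which overlapped (interval of the change −0.17 to 0.09). BIRC5, also called survivin, a passenger subunit, was the weakest call: 201, 202 and 213 CPM in KO and 223, 219.8 and 240.4 CPM in Ctrl (−0.15 ± 0.06, adjusted p = 0.0392). Its call was lost, with the sign kept, in 11 of 15 alternatives. These included leaving out Ctrl replicate 1 (−0.12), Ctrl replicate 3 (−0.09), KO replicate 1 (−0.14) or KO replicate 2 (−0.14). Library size alone lost the call as well, with a value of 0.033.

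All 6 kinesin genes fell in RNA-seq, where 26.8% of all genes were called lower. KIF23, the motor of the central spindle, had 174, 173 and 192 CPM in KO and 269, 268 and 282 CPM in Ctrl (−0.60 ± 0.06, adjusted p = 2.35e-06). KIF20A, which acts in cytokinesis, had 135, 130.2 and 144 CPM in KO and 213, 184 and 208 CPM in Ctrl (−0.56 ± 0.07, adjusted p = 1.39e-05). In both the lowest Ctrl library was well above the highest KO library. KIF4A, a chromosome-bound kinesin, had 109, 108 and 109 CPM in KO and 159, 145 and 159 CPM in Ctrl (−0.50 ± 0.06, adjusted p = 8.57e-06). KIF2C, which takes apart microtubules at centromeres, had 138, 136 and 139 CPM in KO and 195, 185 and 197 CPM in Ctrl (−0.48 ± 0.05, adjusted p = 7.23e-06). KIF14 (−0.40 ± 0.06) and KIF11 (−0.28 ± 0.06), the motor that pushes spindle poles apart, fell as well, and KIF11 lost its call under ERCC scaling, library size alone and the fit of all 12 libraries. In 4sU-seq KIF4A had 102, 98.8 and 113 CPM in KO and 156, 155 and 170.0 CPM in Ctrl (−0.62 ± 0.10, adjusted p = 0.0103). KIF23 had 94.5, 84.0 and 107 CPM in KO and 144, 136 and 155 CPM in Ctrl (−0.61 ± 0.13, adjusted p = 0.0196). These 2 were the only kinesins called there, and their KO libraries agreed more closely than those of KIF20A, at 54.5, 91.2 and 49.1 CPM in KO and 91.6, 106 and 84.9 CPM in Ctrl.

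The spindle assembly factors split. TPX2, which activates AURKA on microtubules, had 333, 322 and 336 CPM in KO and 524, 486 and 520.4 CPM in Ctrl RNA-seq libraries (−0.63 ± 0.05, adjusted p = 9.69e-07). In 4sU-seq it had 324, 394 and 331 CPM in KO and 533, 583 and 527 CPM in Ctrl (−0.65 ± 0.11, adjusted p = 0.00998), again with no overlap. NUSAP1, which bundles spindle microtubules, had 150.2, 156 and 159.7 CPM in KO and 229, 226 and 226 CPM in Ctrl 4sU-seq libraries (−0.55 ± 0.08, adjusted p = 0.00764), and changed by −0.41 ± 0.06 in RNA-seq. HMMR and DLGAP5, both spindle proteins, were not called in either assay. HMMR had 218, 219 and 215 CPM in KO and 182, 203 and 231 CPM in Ctrl RNA-seq libraries (interval of the change −0.08 to 0.24), and DLGAP5 had 285, 276 and 283 CPM in KO and 271, 281 and 318 CPM in Ctrl (interval −0.18 to 0.09). For both, the KO values lay inside the Ctrl range.

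For cytokinesis, PRC1, which bundles the antiparallel microtubules of the midzone, fell in both assays. It had 30.1, 36.4 and 32.2 CPM in KO and 51.7, 53.8 and 49.1 CPM in Ctrl 4sU-seq libraries (−0.65 ± 0.12, adjusted p = 0.0137), with no overlap, and changed by −0.38 ± 0.06 in RNA-seq. ANLN, the ring scaffold, fell in RNA-seq (−0.26 ± 0.06, adjusted p = 0.00354) and lost that call under ERCC scaling, library size alone and the fit of all 12 libraries. ECT2, the exchange factor that activates RhoA at the cleavage furrow, had 296, 294 and 312 CPM in KO and 266, 307 and 331 CPM in Ctrl RNA-seq libraries, inside the Ctrl range (interval of the change −0.16 to 0.15). Its 4sU-seq values were 125, 67.4 and 151 CPM in KO and 82.6, 69.8 and 143 CPM in Ctrl. The groups overlapped, and replicate 2 was the low library in each.

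TOP2A, the topoisomerase that untangles sister chromatids, had 397, 387 and 443 CPM in KO and 561, 607 and 630.0 CPM in Ctrl RNA-seq libraries (−0.55 ± 0.07, adjusted p = 1.66e-05). MKI67, the coat protein of mitotic chromosomes known as the proliferation marker Ki-67, had 949, 921 and 933 CPM in KO and 1428, 1283 and 1268 CPM in Ctrl (−0.51 ± 0.06, adjusted p = 1.85e-05). The groups were well separated for both. In 4sU-seq neither was called, with −0.29 ± 0.12 for TOP2A and −0.21 ± 0.08 for MKI67, although KO libraries lay below Ctrl libraries for each. FOXM1, the transcription factor that activates this gene group, had 130.3, 133 and 133 CPM in KO and 226, 187 and 202 CPM in Ctrl RNA-seq libraries (−0.63 ± 0.07, adjusted p = 5.73e-06). In 4sU-seq it had 41.4, 67.0 and 42.3 CPM in KO and 82.3, 86.8 and 75.4 CPM in Ctrl, without overlap but with a high KO replicate 2 (−0.70 ± 0.21, adjusted p = 0.063).

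The 10 genes that fell in 4sU-seq also fell in RNA-seq, 18 fell in RNA-seq alone by this threshold, and 7 in neither (CDK1, CDC25C, TTK, CENPE, HMMR, DLGAP5 and ECT2). Whether a change differed between steady-state and newly made RNA was tested by a genotype-by-assay interaction term. By edgeR's quasi-likelihood test 0 of the 35 genes were called, against 2.51% of 15863 genes tested in both assays (1.27% lower and 1.24% higher in RNA-seq), with 1 lower and 2 higher at an unadjusted p below 0.05 (MKI67 lower in RNA-seq, CDC25C and PRC1 higher). The lowest adjusted p, 0.0959, belonged to CDC25C, whose change in RNA-seq minus that in 4sU-seq was 0.39 ± 0.11. DESeq2's Wald test called that difference (adjusted p = 0.00135). Leaving out KO replicate 2 of 4sU-seq gave 10 calls, 8 higher and 2 lower (22.9% and 5.71% of the 35), in a fit that called 12.4% of all genes higher and 15.1% lower. The 8 were CCNB1, CDC25C, PLK1, AURKA, CDC20, BIRC5, KIF2C and PRC1, and the 2 were TOP2A and MKI67. With calls this common among all genes, nothing is read from them about the 35.

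The libraries varied in a way that followed gene size. In 4sU-seq the level in replicate 2, set against the mean of replicates 1 and 3, was higher for compact genes and lower for long ones, in KO and in Ctrl. Among KO libraries replicate 2 was above the others' mean for 19 genes, which span a median of 19.5 kb from start to end, and below it for 16, which span 51.8 kb. It was the highest or the lowest KO library for 33 of 35 genes. Among Ctrl libraries it was above for 16 genes (median 19.4 kb) and below for 19 (43.6 kb), and 32 of 35 genes lay on the same side in both genotypes. The log2 deviation in KO ran from −1.36 for TTK to 0.99 for CDC20, and in Ctrl from −0.97 for TTK to 0.35 for CDC20. Across the 35 genes Spearman's rho with span was −0.75 in KO and −0.73 in Ctrl, and across 12072 protein-coding genes it was −0.66 and −0.61. These are descriptions across genes of the same libraries. The coefficient of variation of the 35 genes had a median of 22.0% in KO and 8.47% in Ctrl 4sU-seq libraries, and of 2.65% in KO and 5.25% in Ctrl RNA-seq libraries.

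**Figure D5:**
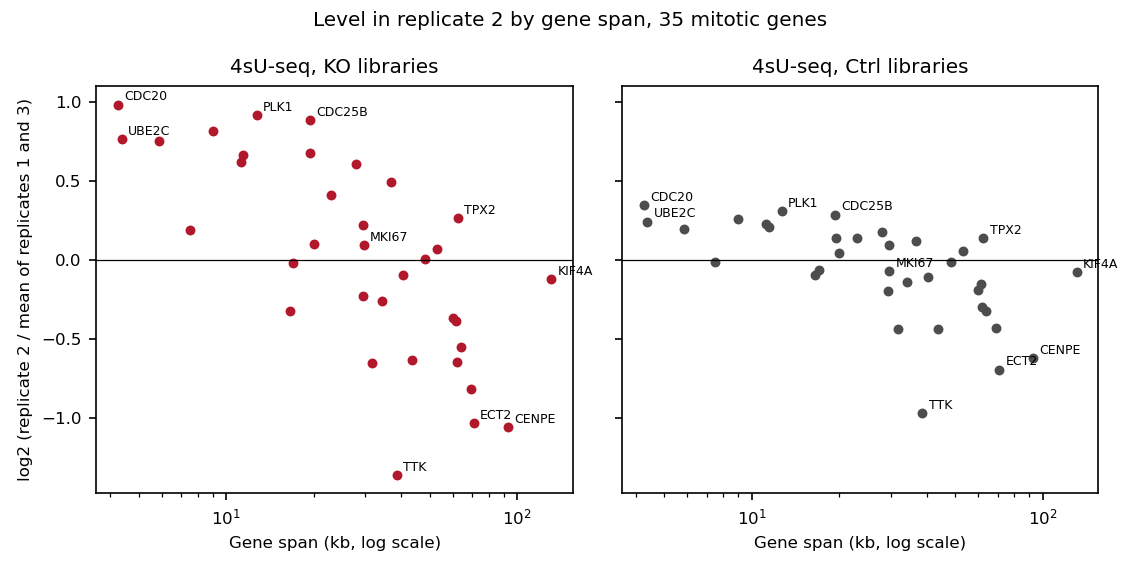
Log2 of the 4sU-seq level in replicate 2 over the mean of replicates 1 and 3, for each of the 35 genes, against the span of the gene in kb (log axis), in KO libraries (left) and Ctrl libraries (right). Compact genes such as CDC20 lie above 0 and longer genes such as ECT2 and CENPE below it in both, with a wider range in KO.

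The amount of newly made RNA was also set against that at steady state. The log2 of 4sU-seq CPM over RNA-seq CPM, each with 0.5 added, had a median of −0.94 in KO and −1.04 in Ctrl over the 35 genes, against 0.23 in KO and 0.19 in Ctrl over 15863 genes. In Ctrl 1 gene, CDC25C (0.66), stood above the median of all genes, and HMMR was lowest at −2.91, followed by PRC1 (−2.60) and CENPE (−2.51). Most other lists also lay below the median of all genes. Those of mitotic genes outside the 35 had medians from −0.69 to −0.19 in KO and from −0.66 to −0.21 in Ctrl, and genes of G1/S and DNA replication −0.32 in KO and −0.10 in Ctrl. The list of MuvB, E2F, RB and NF-Y genes stood apart, at 0.45 in KO, above all genes, and 0.18 in Ctrl, close to them. The epithelial markers had −0.84 in KO and −1.04 in Ctrl, and the mitochondrially encoded genes −1.05 in KO and −1.50 in Ctrl. These ratios are on the scale of each assay's own library total and are not rates. Across protein-coding genes the ratio was higher for longer genes (rho 0.50 with span), while across the 35 genes rho was −0.02. Levels between genes were compared in RNA-seq per kilobase of exon. CDC20 had 163 ± 1.41 CPM per kb in KO and 211 ± 11.1 in Ctrl (SD, n = 3 each), the highest of the 35 genes in both. UBE2C was second in Ctrl (99.0 ± 2.66 in KO, 173 ± 6.97 in Ctrl) and stood below CCNB1 (111 ± 5.76 in KO, 141 ± 6.13 in Ctrl) in KO. TPX2 had 91.7 ± 2.00 CPM per kb in KO and 142 ± 5.84 in Ctrl, and in Ctrl it did not differ from CCNB1 beyond their spread. CDC25C was lowest, at 11.1 ± 0.29 CPM per kb in KO and 10.4 ± 0.75 in Ctrl.

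Other genes of mitosis were taken from 6 lists that leave out the 35, and their counts stand beside 6.98% of all genes called lower and 12.6% higher in 4sU-seq and 26.8% lower and 21.5% higher in RNA-seq. Of 113 tested in 4sU-seq 30 fell, 0 rose and 83 were not called, with a median of −0.31, and of 117 tested in RNA-seq 75 fell and 8 rose, with a median of −0.26. Without KO replicate 2 the 4sU-seq counts were 67 and 2, in a fit that called 28.4% of all genes lower and 25.4% higher. Among kinetochore and centromere genes 9 of 31 fell in 4sU-seq, and 17 of 33 fell and 5 rose in RNA-seq. HJURP, the chaperone that loads CENPA, changed by −0.93 ± 0.12 in 4sU-seq and −0.73 ± 0.06 in RNA-seq, and CENPH, of the inner kinetochore, rose by 0.43 ± 0.06 in RNA-seq. Of 8 checkpoint and passenger genes 3 fell in 4sU-seq and 6 in RNA-seq, with CDCA8, the passenger subunit borealin, at −1.03 ± 0.16 and −0.78 ± 0.06. Of 19 genes of the anaphase-promoting complex, its regulators and separase, 1 fell in 4sU-seq (ANAPC7, −0.59 ± 0.13) and 10 in RNA-seq, where the activator FZR1 stood at −0.57 ± 0.06 and separase, ESPL1, at −0.58 ± 0.06.

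Of 11 regulators of CDK1, 4 fell in 4sU-seq, and 5 fell and 2 rose in RNA-seq. The phosphatase CDC25A changed by −1.01 ± 0.16 in 4sU-seq and −0.30 ± 0.05 in RNA-seq, and CCNF, cyclin F, by −0.93 ± 0.18 and −0.63 ± 0.06. CDKN3, a phosphatase that acts on cyclin-dependent kinases, rose by 0.41 ± 0.06 in RNA-seq, and ENSA was the other that rose. Of condensin and cohesin genes 3 of 17 fell in 4sU-seq, where the list's median was 0.019, and 13 of 18 fell and 1, STAG2, rose in RNA-seq. The condensin subunit NCAPH changed by −0.89 ± 0.14 in 4sU-seq and −0.57 ± 0.06 in RNA-seq, and the cohesin subunit SMC3 by −0.81 ± 0.06 in RNA-seq. Of spindle, centrosome and cytokinesis genes 10 of 27 fell in 4sU-seq and 24 of 28 in RNA-seq, with FAM83D at −0.92 ± 0.14 and −0.73 ± 0.06 and the kinase CIT at −0.82 ± 0.09 in 4sU-seq.

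Of the factors that control such promoters (MuvB, E2F, RB and NF-Y genes), 4 of 21 fell and 1 rose in 4sU-seq, and 13 of 23 fell and 4 rose in RNA-seq. Over all genes tested 6.98% were called lower and 12.6% higher in 4sU-seq, and 26.8% and 21.5% in RNA-seq. The MuvB subunits LIN9 and LIN54 stood at −0.62 ± 0.06 and −0.55 ± 0.06 in RNA-seq, and the repressor E2F7 at −0.93 ± 0.11 in 4sU-seq. TFDP2, a dimerisation partner of E2F factors, rose by 1.14 ± 0.21 in 4sU-seq and 0.80 ± 0.06 in RNA-seq. The others that rose in RNA-seq were CDKN1A, the CDK inhibitor p21 (0.44 ± 0.06), NFYB and RBL2. Of 32 genes of G1/S and DNA replication 14 fell and 0 rose in 4sU-seq, and 22 fell and 1, CCNE2, rose in RNA-seq. MCM10 changed by −0.90 ± 0.11 in 4sU-seq, and CCNE1, cyclin E1, by −0.50 ± 0.05 in RNA-seq. Without KO replicate 2 the 4sU-seq counts were 11 lower and 4 higher for the promoter factors and 28 lower and 0 higher for the replication genes, again beside 28.4% and 25.4% of all genes. The difference between lists was not tested.

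Some counts may be shared with overlapping genes, since the strand setting of the counting is not given in the sources used here. By GENCODE 29, exons of 11 of the 35 genes overlap exons of a gene on the opposite strand, most of all FOXM1 with ITFG2 (15.9% of its exon bases) and PLK1 with AC008870.3 (11.6%). The readthrough loci AC087721.2 and AC068831.7 cover 62.2% of the exon bases of NUSAP1 and 57.6% of those of PRC1 on the same strand. Neither ID is among the counted genes. BUB1B shares 10.2% of its exon bases with BUB1B-PAK6, which is. Reads of such pairs cannot be told apart by position alone.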

How the data were processed

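The deposited files are 2 tables, 1 per assay, of raw counts per gene, which the authors made with HISAT2 2.1.0, SAMtools 1.3 and featureCounts on hg38, per the submitters' processing notes. They hold 56104 genes and 92 ERCC species. How strand and multi-mapping reads were handled, and which annotation was counted, is not given in the sources used here. ERCC counts were left out of library sizes. Each assay was fitted alone: genes were kept by filterByExpr (minimum count 10), scaled by TMM and tested in edgeR 4.0.16 (R 4.3.3) by its quasi-likelihood F test (two-sided, Benjamini-Hochberg over all genes, threshold 0.05). Standard errors were taken from F (change over its square root). The difference between assays was the interaction over all 12 libraries, with TMM set within each assay. DESeq2 1.42.0 served as an alternative. ERCC made up 0.0371 ± 0.0170% of KO and 0.0371 ± 0.00775% of Ctrl 4sU-seq counts and 0.559 ± 0.0197% of KO and 0.524 ± 0.0422% of Ctrl RNA-seq counts (SD, n = 3 each, two-sided exact permutation p = 1 and 0.4, where 0.1 is the smallest possible).

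Coordinates, spans and exon lengths came from GENCODE 29, which matched 94.3% of gene IDs, and may differ from the one counted. Promoter sequences came from RefSeq. The genes and lists were chosen with earlier results of these data known. All 35 genes are accounted for. Full statistics go to the 12 called genes with the smallest p per assay and to the highest and lowest change, and from each related list up to 3 called genes with the smallest p per assay are named, not all of them here. Other listed genes that rose were named after their values were seen. The fits were tested on simulated data.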

Additional observations from a re-analysis of the deposited data

How the results depend on the processing

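In 4sU-seq members called lower numbered 10, and 19 by DESeq2's Wald test, 0 under ERCC scaling, 22 with all 12 libraries in 1 fit, 26 without both replicates numbered 2 and 1 to 25 leaving out 1 library. The members' median of −0.49 moved to −0.29 under ERCC scaling, −0.40 with library size alone, −0.56 with no filter, −0.59 without both replicates numbered 2 and −0.62 to −0.43 leaving out 1 library. CDC25B, at 0.07, ranged from −0.36 (without KO replicate 2) to 0.26 leaving out 1 library. Over all genes 1482 were lower and 2684 higher, against 2426 lower by DESeq2, 44 and 672 under ERCC scaling, 2769 lower in the joint fit, 858 lower with library size alone, 5364 and 5529 without both replicates numbered 2, and 268 to 6158 lower and 1054 to 5515 higher leaving out 1 library. With 1 library left out the smaller group's spread is pooled with the other's.

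In RNA-seq 28 members were lower, 20 in the joint fit, 23 under ERCC scaling or library size alone, and 27 or 28 leaving out 1 library. Members called higher numbered 0, and 1 by DESeq2, with its size factors, under ERCC scaling or with no filter, 2 at a mean count of at least 50, 7 with library size alone and 0 to 3 leaving out 1 library. TTK was called higher under 8 of 15 alternatives, CDK1, CDC25C and HMMR under 2 each, and CENPE, DLGAP5 and ECT2 under 1 each. The median of −0.38 moved to −0.30 under ERCC scaling and at a mean count of at least 50, and to −0.20 with library size alone. With library size alone CENPE (0.15), DLGAP5 (0.14) and ECT2 (0.18) were called higher, and BIRC5 (0.033) stood above 0. Over all genes 5473 were lower and 4398 higher, against 2731 lower under ERCC scaling, 2454 and 2335 in the joint fit, 2823 and 7423 with library size alone, and 4594 to 5213 lower and 3551 to 4938 higher leaving out 1 library. Summing KO replicates 1 and 2 left 27 members lower.

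For the difference between assays members called higher numbered 0, 1 by DESeq2, and 0 to 8 (0 to 2 lower) leaving out 1 library. The median of 0.07 moved to −0.061 under ERCC scaling, 0.16 with library size alone and −0.031 to 0.11 leaving out 1 library. Over all genes 201 were lower and 197 higher, against 463 and 631 by DESeq2, 5 and 2 under ERCC scaling, 115 lower with library size alone, and 50 to 2392 lower and 39 to 1970 higher leaving out 1 library. Apart from the replicate block, given below, the other alternatives kept these counts within 1.5 times.

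For the related lists, leaving out KO replicate 2, chosen after seeing the data, gave 67 mitotic genes lower and 2 higher against 30 and 0, 11 promoter factors lower and 4 higher against 4 and 1, and 28 replication genes lower against 14.

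With the replicate number as a block, 21 members were lower in 4sU-seq (2751 genes lower and 4156 higher), 1 was higher in RNA-seq, TTK, and 343 genes were lower and 314 higher for the difference between assays. The numbers were not shown to pair the samples: deviations of same-numbered libraries correlated at −0.07, 0.71 and 0.70 in 4sU-seq and −0.04, 0.16 and 0.23 in RNA-seq. In 4sU-seq KO replicate 1 correlated with Ctrl replicate 3 at 0.59, and KO replicate 2 with Ctrl replicate 3 at −0.72. For numbers 2 and 3 of 4sU-seq, deviations were thus alike in both genotypes, and the main fit, which has no block, keeps them in its spread. The causes of these shifts were not tested.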
